A study of Mus musculus with 58 samples.

Results

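The genes described here are 10 muscle genes that respond to stretch or mechanical load or that build the Z-disc and its titin anchors: Ankrd1, Ankrd2, Ankrd23, Csrp3, Fhl1, Mustn1, Actn2, Xirp1, Flnc and Alpk3. The genes were chosen with earlier results of these data known. They were taken by name, as every probe set annotated to exactly 1 of these symbols. That gave 13 probe sets for 10 genes, of 34945 probe sets for 18193 genes in all; Ankrd1, Fhl1 and Flnc each had 2 probe sets. All 13 reached the minimum level for testing in all 3 experiments.

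Quadriceps mRNA was measured on 58 Affymetrix arrays in 34 male mice. Experiment 1 held CUGexp transgenic line 20b (n = 6), CUGexp transgenic line 41 (n = 6) and FVB wild type (n = 6), all aged 6 months. Experiment 3 held Mbnl1-null mice (n = 5) and FVB wild type (n = 5), aged 3 months. Experiment 2 held Clcn1-null mice (n = 3), which are myotonic, and BALB wild type (n = 3), also aged 3 months. No mouse was treated, and the modifications were constitutive. The labels do not give the promoter of the CUGexp transgene, how the null alleles were made, or whether any sample pooled animals; each CUGexp line is a single transgenic line. CUGexp mice carry an expanded CUG repeat RNA as in myotonic dystrophy. Mbnl1 is the splicing regulator that such repeats sequester, and Clcn1 is the muscle chloride channel, whose loss gives myotonia. The series asked how toxic RNA changes muscle transcripts, with the null mice separating loss of Mbnl1 and myotonia itself.

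In striated muscle, force is passed along the sarcomere through the Z-disc, where alpha-actinin cross-links actin filaments, and through titin, an elastic protein that also carries signalling partners. The muscle ankyrin repeat proteins Ankrd1, Ankrd2 and Ankrd23 bind titin and also occur in the nucleus, and in rodents their mRNAs are known to respond to stretch, injury or exercise. The LIM proteins Csrp3 and Fhl1 link Z-disc, titin and actin to signalling; Flnc and Xirp1 are found at the Z-disc, the fibre membrane and sites of fibre damage. Mustn1 is a small nuclear protein of muscle and skeleton, and Alpk3 is an alpha-kinase of the sarcomere known from inherited human cardiomyopathy.

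Promoter windows from RefSeq (GRCm38.p6, 250 bases before the annotated start) were at hand for 9 of the 10 genes, as 13 windows, some of them for alternative starts; the 2 Flnc windows overlap. Xirp1 had no entry. They were searched on both strands for the MCAT element CATTCC, bound by TEAD factors, for the CArG box, bound by SRF, for the MEF2 site, for the E-box CANNTG and for TATAAA. The TATAAA and MEF2 matches of Alpk3 overlap. Printed 5′ to 3′ are windows of Ankrd1, Ankrd23 and Fhl1, with MCAT or CArG matches. Windows of Mustn1 and Actn2 are printed too, the 2 genes called higher (adjusted p under 0.05) in all 4 comparisons with wild type. The Flnc window with an MCAT match and the Alpk3 window with the MEF2 match are not printed. MCAT and CArG matches are in capitals (GGAATG is CATTCC on the other strand).
Ankrd1, chr19:36119845-36120094 (minus strand): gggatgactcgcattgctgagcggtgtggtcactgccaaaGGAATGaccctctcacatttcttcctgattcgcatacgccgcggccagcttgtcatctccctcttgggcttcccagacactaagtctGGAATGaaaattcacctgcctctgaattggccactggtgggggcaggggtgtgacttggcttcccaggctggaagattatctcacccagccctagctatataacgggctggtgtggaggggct
Ankrd23 second start, chr1:36535740-36535989 (minus strand): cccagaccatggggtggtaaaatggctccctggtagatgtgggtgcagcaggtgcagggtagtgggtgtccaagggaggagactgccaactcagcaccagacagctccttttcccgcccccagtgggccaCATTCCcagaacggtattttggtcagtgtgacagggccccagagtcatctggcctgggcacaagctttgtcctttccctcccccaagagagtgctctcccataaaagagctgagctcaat
Fhl1 first start, chrX:56779433-56779682 (plus strand): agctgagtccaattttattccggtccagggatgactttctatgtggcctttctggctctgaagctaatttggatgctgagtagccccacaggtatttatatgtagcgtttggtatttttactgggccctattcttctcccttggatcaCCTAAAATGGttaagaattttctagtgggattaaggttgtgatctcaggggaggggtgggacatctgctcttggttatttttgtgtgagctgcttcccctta
Mustn1, chr14:30879007-30879256 (plus strand): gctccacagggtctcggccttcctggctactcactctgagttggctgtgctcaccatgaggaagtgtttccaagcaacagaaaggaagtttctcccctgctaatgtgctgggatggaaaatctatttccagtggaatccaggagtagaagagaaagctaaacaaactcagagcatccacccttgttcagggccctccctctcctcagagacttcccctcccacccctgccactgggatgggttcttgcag
Actn2, chr13:12340733-12340982 (minus strand): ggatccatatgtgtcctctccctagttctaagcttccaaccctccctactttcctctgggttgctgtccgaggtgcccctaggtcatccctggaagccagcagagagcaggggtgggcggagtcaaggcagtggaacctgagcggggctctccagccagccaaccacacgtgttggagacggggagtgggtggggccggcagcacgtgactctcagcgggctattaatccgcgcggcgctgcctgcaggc
The Ankrd1 window held MCAT at 210 and 123 bases before the start, the Ankrd23 window at 120 and the second Flnc window at 104. The Fhl1 window held a CArG box at 102 bases before the start. The Mustn1 and Actn2 windows held none of MCAT, CArG and MEF2. MCAT was present in 3 of 13 member windows (23.1%), against 12.6% of 32851 windows of all genes. The CArG box was in 1 of 13 (7.69%, against 1.47%), the MEF2 site in 1 (7.69%, against 2.92%), TATAAA in 3 (23.1%, against 12.4%) and the E-box in 9 (69.2%, against 66.2%). These are matches of letters in a short window and are given as a description.

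The values are log2 of the deposited intensity, which were compared within an experiment only, because the experiments were on different scales. Where a gene has 2 probe sets, the brighter, called the lead, stands for it and the other is given beside it. A change is the group mean minus the wild-type mean on the log2 scale, with its standard error (SE), tested with limma. A call means an adjusted p under 0.05 over all probe sets tested. Nothing in the labels says how the mice of a group were related, so p-values measure the spread between these mice.

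The tissue labels fitted the markers: all 9 skeletal muscle fibre markers were above an intensity of 32 in all 34 mice. Of 6 cardiac markers, 2 to 5 were under 32 in each mouse. The targeted genes were lower where the labels say so: Clcn1 by -1.42 (SE 0.27, adjusted p = 0.0428) in Clcn1-null against BALB mice, and Mbnl1 by -0.73 (SE 0.06, adjusted p = 4.83e-05) in Mbnl1-null against FVB mice. Clcn1 was also called lower where the labels name no change to it, by -1.11 (adjusted p = 0.000405) in Mbnl1-null mice, -0.95 (adjusted p = 1.92e-06) in line 20b and -0.46 (adjusted p = 0.0068) in line 41. Mbnl1 was not called in the other 3 comparisons with wild type. Such probe sets can lie outside the altered part of a gene. Wild-type mice 1 and 2 of experiment 1 stood apart, with means over the slow fibre markers of 10.85 and 8.63, below the 12.60 to 13.29 of their group mates.

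The mice numbered 3 of experiment 1 stood apart in the genes described here, in all 3 groups alike. Of the 13 member probe sets, 10 had their highest value in mouse 3 in line 20b, in line 41 and in wild type, against 412 of 27330 probe sets tested (1.51%). For each of the other 5 mouse numbers the count of members was 0, and the share of all probe sets 0.263% to 0.542%. Ankrd1 showed it most: 14.89 in line 20b mouse 3, 14.78 in line 41 mouse 3 and 14.25 in wild-type mouse 3. The medians of the other 5 mice were 10.80, 11.47 and 8.80, so that mouse 3 lay 17.1-fold, 9.91-fold and 43.7-fold above them. Ankrd1 in wild-type mouse 3 was thus above every line 20b and line 41 mouse except those numbered 3.

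Csrp3, Xirp1, Ankrd2 and Flnc had the same pattern with smaller gaps. Csrp3 in mouse 3 exceeded the median of its group mates 5.31-fold in line 20b, 2.92-fold in line 41 and 6.69-fold in wild type. Xirp1 exceeded it 3.21-fold, 5.03-fold and 5.98-fold, and Ankrd2 6.03-fold, 2.15-fold and 3.90-fold. The members without the pattern were Ankrd23, Alpk3 and the lead probe set of Fhl1; Ankrd23 in line 20b mouse 3 was the lowest of its group (14.16). Mustn1 and Actn2 were highest in mouse 3 too, but in line 20b only by 1.46-fold and 1.11-fold.

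The pattern was not limited to the 10 genes. Ranked by the smallest gap between mouse 3 and the next mouse in the 3 groups, the leading genes were Ankrd1 (a gap of 2.71), Tnfrsf12a, a receptor for the cytokine TWEAK (1.37), Atf3, a stress-induced transcription factor (1.26), Klhl40 (1.19), Hbegf, a growth factor (1.06), and Lmcd1 (1.06). These genes were named after their values were seen. The mean over the 7 markers of immature and regenerating fibres was also highest in mouse 3 of each group: 9.70 in line 20b (9.42 to 9.69 in the other 5 mice), 10.27 in line 41 (9.37 to 9.74) and 10.37 in wild type (8.85 to 9.49). The labels do not say whether a number stands for a shared litter, cage or day; why the mice numbered 3 differ, and the part of those markers in it, was not tested. Results of experiment 1 are therefore given with all mice and without the 3 mice numbered 3, an alternative chosen after seeing the data.

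**Figure D1:**
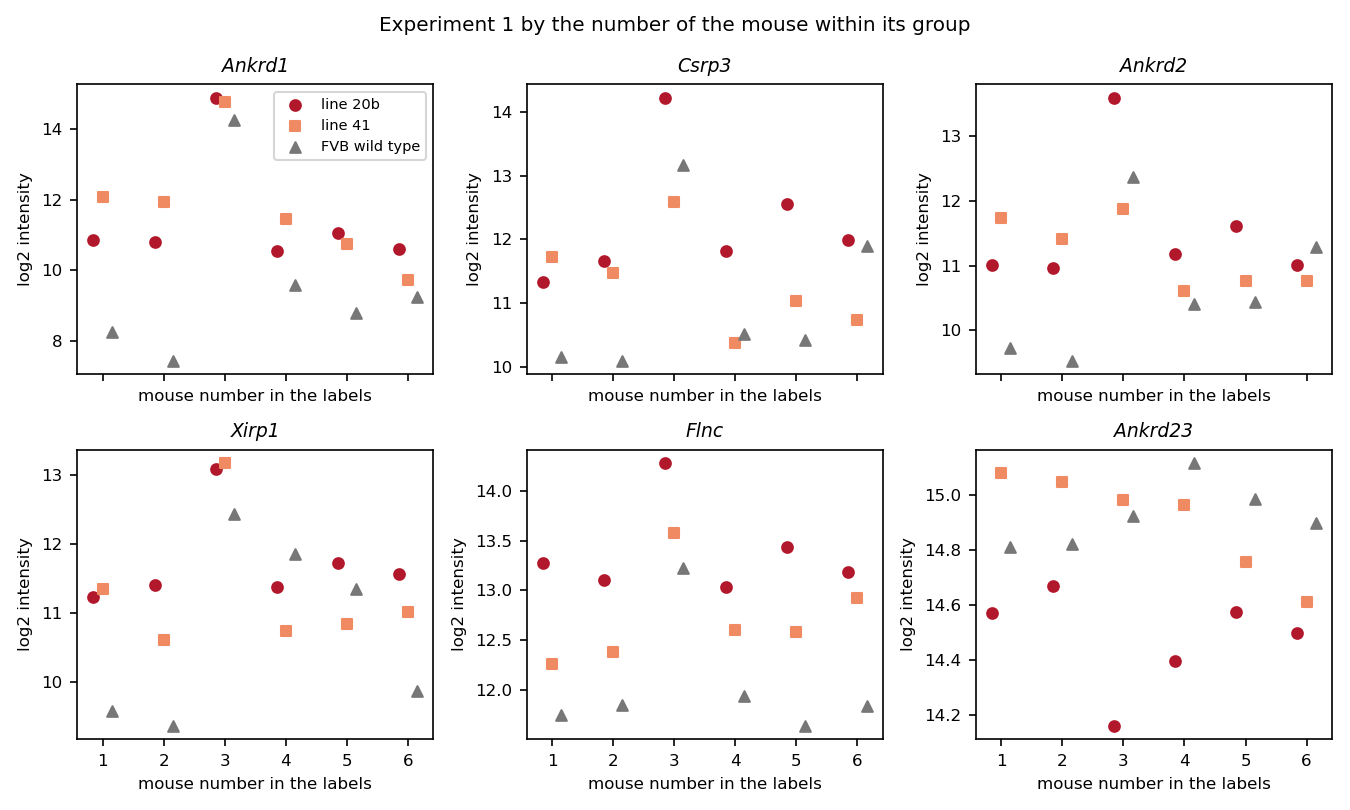
Log2 intensity of 6 members in experiment 1 (y axis), by the number that the labels give each mouse within its group (x axis); circles are line 20b, squares line 41 and triangles FVB wild type. For Ankrd1 the mice numbered 3 lie at 14.25 to 14.89 in all 3 groups, above every other mouse, whereas Ankrd23 shows no such rise.

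Across the 10 genes, most changes were increases. In line 20b, 4 genes were called higher at the lead probe set and 1 lower; over all their probe sets, 7 of 13 were called (53.8%, against 16.8% of all probe sets tested), 6 of them higher and 1 lower (against 7.35% and 9.49%). In line 41, 4 genes and 4 of 13 probe sets were higher (30.8% called, against 8.47%; 3.88% higher and 4.59% lower of all). None was lower by limma, also at an unadjusted p under 0.05. In Mbnl1-null mice 5 genes and 8 of 13 probe sets were higher (61.5% called, against 16.2%; 7.28% higher and 8.92% lower of all). None was called lower, and 1 was lower at an unadjusted p under 0.05. In Clcn1-null mice 4 genes and 4 of 13 probe sets were higher (30.8% called, against 4.32%; 1.78% higher and 2.54% lower of all). None was lower by limma, also at an unadjusted p under 0.05. Line 20b differed from line 41 at 1 of 13 probe sets (7.69%, against 5.84%, with 2.58% higher and 3.26% lower of all), which is near the background. The split over all probe sets depended on the scaling: in line 20b 2009 were higher and 2594 lower, but shifting every array to a common median gave 2701 higher and 2162 lower, and between the lines 705 and 891 were 1050 and 778.

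Groups that did not overlap were counted as well. All line 20b mice lay above all wild-type mice at 3 lead probe sets and below them at 1, against 4.32% and 5.26% of all probe sets tested. Line 41 lay wholly above at 2 and wholly below at 0 (2% and 1.88% of all), and Mbnl1-null at 3 and 0 (5.83% and 8.48%). Clcn1-null mice lay wholly above at 8 and wholly below at 1; with 3 mice a group this was frequent, at 13.9% and 14.5% of all.

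The median change of the 10 lead probe sets was 0.96 in line 20b, 0.56 in line 41, 1.16 in Mbnl1-null and 1.57 in Clcn1-null mice. Over all probe sets tested the medians were -0.01, -0.0045, -0.02 and 0.03 in the same order. Of the 10 changes, 9 were positive in each of the 4 comparisons, and the negative one was Ankrd23 each time, though in line 41 its change of -0.02 was 0.05 after quantile normalisation and 0.04 without line 41 mouse 6. Without wild-type mice 1 and 2 the line 41 changes of Csrp3 and Xirp1, which were not called, were -0.18 and -0.09. Line 20b and line 41 share their wild-type mice, so that their changes are not independent of each other. Without the mice numbered 3, 11 of 13 probe sets were called in line 20b (against 16% of all probe sets under that setting) and 8 of 13 in line 41 (against 6.87%).

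**Figure D2:**
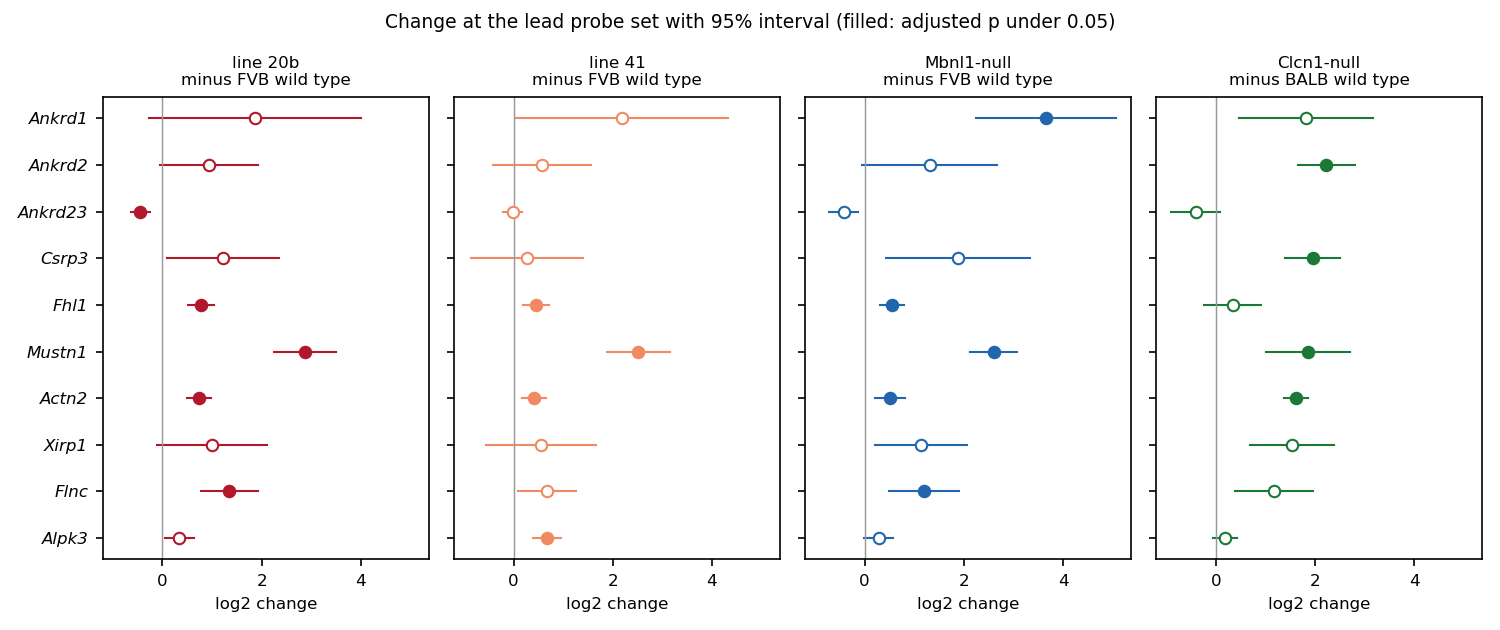
Change of each member on the log2 scale (x axis) at its lead probe set with the 95% interval, for line 20b, line 41 and Mbnl1-null mice against their FVB wild types and Clcn1-null mice against BALB wild type; filled points were called. Mustn1 and Actn2 are filled in all 4 panels, and Ankrd23 lies left of 0 in all 4 (by -0.02 in line 41, which was 0.05 after quantile normalisation).

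Mustn1 was higher in all 4 comparisons, and by the most among the 10 genes in line 20b. In line 41 it also led with all mice, but without wild-type mouse 3 its change of 2.82 was below the 3.12 of Ankrd1. Its values (lowest, median, highest) were 12.52, 12.77 and 13.29 in line 20b and 11.66, 12.48 and 13.02 in line 41, against 9.13, 9.65 and 11.42 in wild type. Every mouse of both lines lay above all 6 wild-type mice. The change was 2.88 (SE 0.30, 7.36-fold, adjusted p = 1.88e-06) in line 20b and 2.52 (SE 0.30, 5.73-fold, adjusted p = 4.19e-05) in line 41. Leaving out the mice numbered 3, these were 3.08 and 2.70, both called. Between the lines it differed by 0.36 with a 95% interval of -0.27 to 0.99.

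In Mbnl1-null mice Mustn1 was 12.94, 14.31, 13.53, 13.82 and 13.88, against 11.43, 10.96, 10.92, 11.25 and 10.88 in wild type. The groups did not overlap, and the change was 2.61 (SE 0.22, 6.09-fold, adjusted p = 3.88e-05). In Clcn1-null mice it was 12.34, 12.65 and 11.65, against 10.06, 10.93 and 10.05 in BALB wild type, again without overlap. That change was 1.86 (SE 0.35, 3.64-fold, adjusted p = 0.0404). The Clcn1-null call was lost when any 1 of 5 mice was left out (Clcn1-null mouse 1 or 2, or any BALB mouse), with an adjusted p up to 0.174, while the change stayed between 1.65 and 2.16. The other 3 calls held without any single mouse.

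Actn2, the alpha-actinin that cross-links actin at the Z-disc of all fibre types, was also called higher in all 4 comparisons, by less than Mustn1 in each. Its values (lowest, median, highest) were 13.94, 14.14 and 14.28 in line 20b and 13.53, 13.82 and 14.06 in line 41, against 12.93, 13.47 and 13.77 in wild type. Line 20b lay wholly above wild type, and line 41 overlapped it. The change was 0.74 (SE 0.12, 1.67-fold, adjusted p = 0.000176) in line 20b and 0.41 (SE 0.12, 1.33-fold, adjusted p = 0.0334) in line 41. The line 41 call was lost without any 1 of 6 mice (line 41 mouse 2, 3, 4 or 6, wild-type mouse 1 or 2), with an adjusted p up to 0.0788. Without wild-type mice 1 and 2 together it was 0.25 (adjusted p = 0.167). Leaving out the mice numbered 3 gave 0.78 in line 20b and 0.44 in line 41, both called.

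In Clcn1-null mice Actn2 was 15.26, 15.43 and 15.25, against 13.70, 13.63 and 13.77 in BALB wild type. The replicates lay close together and the groups far apart, with a change of 1.61 (SE 0.10, 3.05-fold, adjusted p = 0.00297), and the call held without any single mouse. In Mbnl1-null mice Actn2 was 13.57, 14.32, 14.25, 14.18 and 14.46, against 13.64, 13.64, 13.52, 13.65 and 13.75 in wild type. Mbnl1-null mouse 1 lay among the wild-type mice, and the other 4 lay above them. The change was 0.52 (SE 0.14, 1.43-fold, adjusted p = 0.0278). The call was lost without any 1 of 8 mice (all but Mbnl1-null mouse 1 and wild-type mouse 5), with an adjusted p up to 0.0662, and the change was 0.66 without Mbnl1-null mouse 1.

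Actn3, the alpha-actinin of fast fibres, which is not among the 10 genes, fell by 1.92 in Clcn1-null mice (SE 0.32, adjusted p = 0.0306). Its mean was 14.18 in Clcn1-null mice and 16.10 in BALB wild type.

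**Figure D3:**
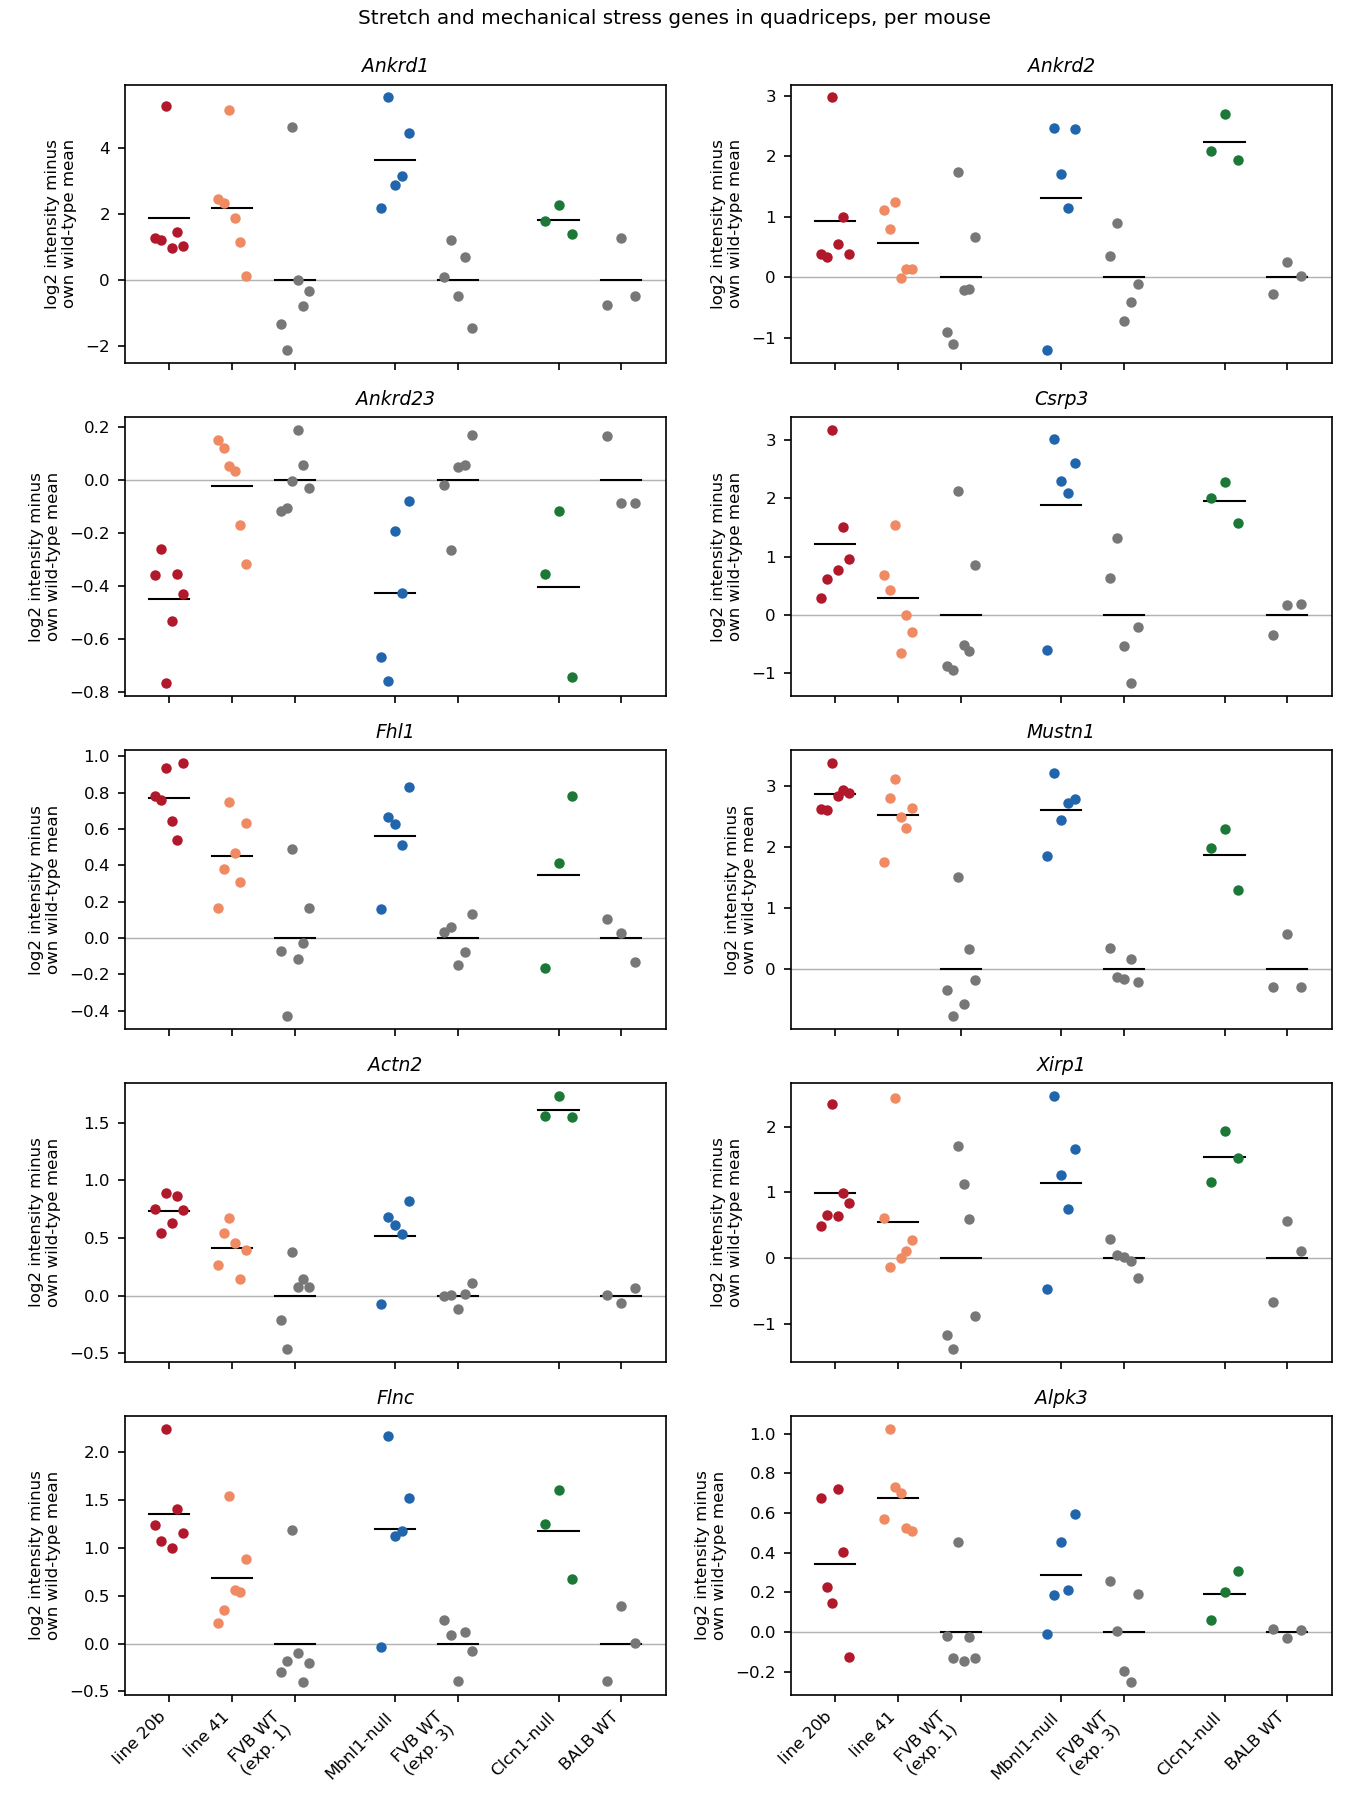
Log2 intensity of each member at its lead probe set minus the mean of its own wild type (y axis), 1 point a mouse and a bar for the group mean, with each mutant group left of its wild type. Mustn1 separates every mutant group from its wild type, Ankrd1 carries 1 high mouse in each group of experiment 1, and Ankrd23 is the member whose mutant bars lie at or below 0.

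Fhl1, a LIM protein of the sarcomere that is mutated in human reducing body myopathy, was called higher in both CUGexp lines and in Mbnl1-null mice. At the lead probe set the values (lowest, median, highest) were 14.73, 14.96 and 15.15 in line 20b and 14.35, 14.61 and 14.94 in line 41, against 13.76, 14.14 and 14.68 in wild type. Line 20b lay above all wild-type mice, and line 41 overlapped them. The change was 0.77 (SE 0.13, adjusted p = 0.000241) in line 20b and 0.45 (SE 0.13, adjusted p = 0.0318) in line 41. The line 41 call was lost without any 1 of 7 mice (line 41 mouse 3, 4 or 6, wild-type mouse 1, 2, 4 or 5), with an adjusted p up to 0.0764, and without wild-type mice 1 and 2 together it was 0.32 (adjusted p = 0.152). Leaving out the mice numbered 3 gave 0.83 in line 20b and 0.49 in line 41, both called.

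In Mbnl1-null mice Fhl1 was 13.87, 14.37, 14.34, 14.22 and 14.54, against 13.74, 13.77, 13.56, 13.63 and 13.84 in wild type. The groups did not overlap, and the change was 0.56 (SE 0.11, adjusted p = 0.00611). In Clcn1-null mice it was 14.87, 15.44 and 15.81, against 15.13, 15.06 and 14.90 in BALB wild type, a change of 0.34 (95% interval -0.23 to 0.92, adjusted p = 0.487) that ran from 0.13 without Clcn1-null mouse 3 to 0.60 without Clcn1-null mouse 1. The second probe set of Fhl1 was called in line 20b (2.00, SE 0.45, adjusted p = 0.00449) and in Mbnl1-null mice (1.65, SE 0.31, adjusted p = 0.00506), and not in line 41 (1.20, adjusted p = 0.114). In experiment 2 that probe set was near the minimum level, with 5.42, 5.19 and 5.58 in the Clcn1-null group against 5.85, 5.00 and 6.59 in the BALB group, and its change was -0.41 (adjusted p = 0.605).

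Csrp3, the muscle LIM protein of the Z-disc, was called in Clcn1-null mice. It was 14.84, 15.11 and 14.42 there, against 12.48, 13.00 and 13.01 in BALB wild type, without overlap (change 1.95, SE 0.23, 3.88-fold, adjusted p = 0.0122). The call was lost without BALB mouse 1 or 3, with an adjusted p up to 0.0682. In Mbnl1-null mice Csrp3 was 10.46, 14.09, 13.37, 13.16 and 13.68, against 11.69, 12.38, 10.52, 9.88 and 10.86 in wild type. Mouse 1 lay within the wild-type range and the other 4 above it. The change was 1.88 (SE 0.66, adjusted p = 0.0747) over all mice and 2.51 (adjusted p = 0.00416) without mouse 1; without wild-type mouse 4 it was 1.59 (adjusted p = 0.158).

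In line 20b the values of Csrp3 (lowest, median, highest) were 11.33, 11.90 and 14.22, and in line 41 10.38, 11.25 and 12.59, against 10.10, 10.47 and 13.17 in wild type. The highest value of each group was that of mouse 3, and the groups overlapped. The change was 1.22 (SE 0.54, adjusted p = 0.144) in line 20b and 0.28 (SE 0.54, adjusted p = 0.823) in line 41. Without the mice numbered 3 it was 1.25 and called in line 20b (adjusted p = 0.017), and 0.45 and not called in line 41 (adjusted p = 0.491). Mouse 3 of a single group moved it in both directions. The line 20b change was 0.82 (adjusted p = 0.308) without line 20b mouse 3 and 1.64 (adjusted p = 0.0243) without wild-type mouse 3; the line 41 change was 0.03 without line 41 mouse 3 and 0.70 without wild-type mouse 3, neither called.

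Ankrd1, a titin partner and transcriptional cofactor also called CARP, rose 12.6-fold in Mbnl1-null mice, the largest change of the 10 genes in any comparison. It was 9.76, 13.13, 10.47, 10.74 and 12.03 in Mbnl1-null mice, against 7.66, 8.78, 7.06, 8.26 and 6.10 in wild type. The groups did not overlap, although the SD was 1.35 in Mbnl1-null mice and 1.04 in wild type. The change was 3.65 (SE 0.65, adjusted p = 0.00334), and 3.52 (SE 0.60, adjusted p = 0.00271) at the second probe set. Leaving out any single mouse gave 3.18 to 4.02, all called.

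In experiment 1 the values of Ankrd1 (lowest, median, highest) were 10.56, 10.83 and 14.89 in line 20b and 9.72, 11.70 and 14.78 in line 41, against 7.45, 9.02 and 14.25 in wild type. The groups overlapped through wild-type mouse 3: every mouse of both lines lay above the other 5 wild-type mice. The change over all mice was 1.87 (SE 1.02, adjusted p = 0.246) in line 20b and 2.19 (SE 1.02, adjusted p = 0.209) in line 41, which was not called. The second probe set gave 1.66 (adjusted p = 0.301) and 2.19 (adjusted p = 0.201). Without the mice numbered 3 the lead was 2.11 in line 20b (adjusted p = 0.00259) and 2.53 in line 41 (adjusted p = 0.00201). Without wild-type mouse 3 alone it was 2.80 (adjusted p = 0.0248) and 3.12 (adjusted p = 0.0237). Without the mouse 3 of the line alone it was 1.18 (adjusted p = 0.473) and 1.60 (adjusted p = 0.399). In Clcn1-null mice Ankrd1 was 13.28, 13.79 and 12.90, against 10.73, 12.78 and 11.00 in BALB wild type (change 1.82, SE 0.56, adjusted p = 0.15). BALB mouse 2 was the high one, and without it the change was 2.46 (adjusted p = 0.0361). It was 1.43 without BALB mouse 1, and the adjusted p reached 0.411 without BALB mouse 3. At the second probe set the change was 1.59 (adjusted p = 0.245), and the groups overlapped there.

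**Figure D4:**
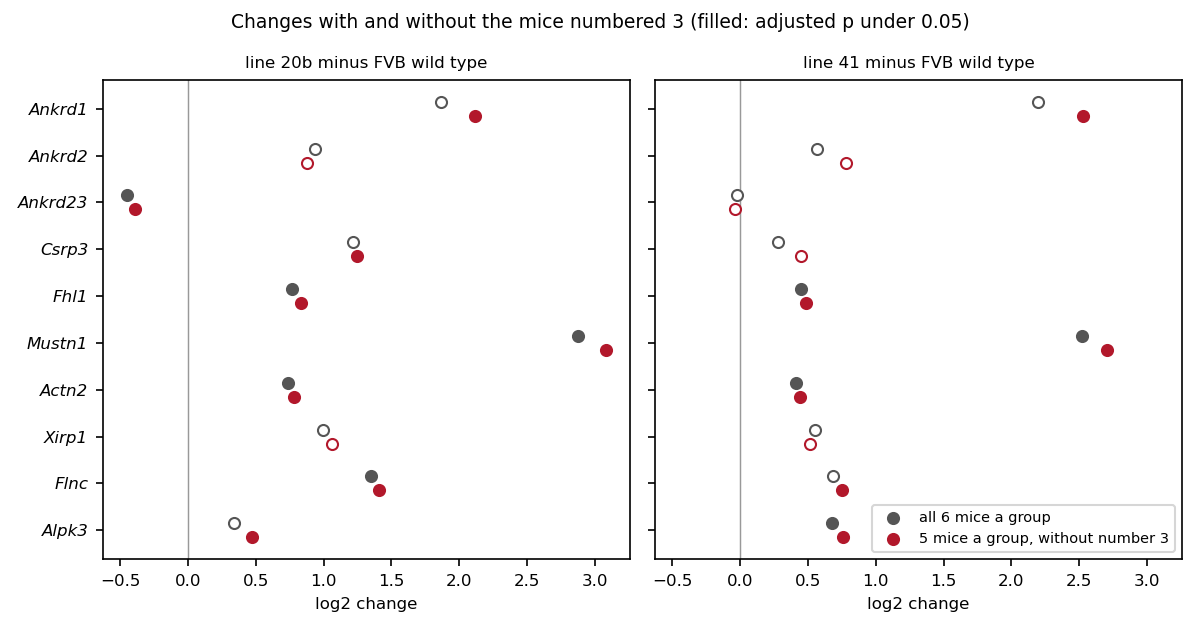
Change on the log2 scale (x axis) of the 10 members in line 20b and line 41 against FVB wild type, with all 6 mice a group (grey) and with 5 mice a group, without the mice numbered 3 (red); filled points were called. Ankrd1 turns from open to filled in both panels, Csrp3 and Alpk3 do so in line 20b and Flnc in line 41. Csrp3 in line 41 moves from 0.28 with all mice to 0.45 and Ankrd2 in line 41 from 0.57 to 0.78, both open.

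Ankrd2, the ankyrin repeat partner of titin that is enriched in slow fibres, was called in Clcn1-null mice. It was 14.69, 15.31 and 14.54, against 12.34, 12.86 and 12.64 in BALB wild type, without overlap (change 2.23, SE 0.24, 4.70-fold, adjusted p = 0.00989). The call was lost without BALB mouse 1 or 3, with an adjusted p up to 0.0673. In Mbnl1-null mice Ankrd2 was 9.88, 13.55, 12.79, 12.23 and 13.54, against 11.43, 11.97, 10.37, 10.68 and 10.97 in wild type. Mouse 1 was the lowest of all 10 mice and the other 4 lay above the wild-type range. The change was 1.31 (SE 0.62, adjusted p = 0.177), and 1.94 (adjusted p = 0.0053) without mouse 1; without mouse 2 it was 1.02, and the adjusted p reached 0.307 without wild-type mouse 3. In the CUGexp lines the change was 0.93 (SE 0.47, adjusted p = 0.207) in line 20b and 0.57 (SE 0.47, adjusted p = 0.529) in line 41; both lines overlapped wild type. The line 20b change was 0.53 (adjusted p = 0.435) without line 20b mouse 3 and 1.28 (adjusted p = 0.0497) without wild-type mouse 3. The line 41 change ran from 0.35 without wild-type mouse 2 to 0.92 without wild-type mouse 3. With all 3 mice numbered 3 left out it was 0.88 (adjusted p = 0.0527) in line 20b and 0.78 (adjusted p = 0.127) in line 41, neither called.

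Ankrd23, the third ankyrin repeat partner of titin, was the member that was lower. Its values (lowest, median, highest) were 14.16, 14.53 and 14.67 in line 20b and 14.61, 14.97 and 15.08 in line 41, against 14.81, 14.91 and 15.12 in wild type. All 6 line 20b mice lay below all 6 wild-type mice, while line 41 overlapped wild type. Ankrd23 fell by 0.45 in line 20b (SE 0.09, adjusted p = 0.00188), and its change in line 41 was -0.02 (SE 0.09, adjusted p = 0.928). The direct comparison of line 20b with line 41 gave -0.43 (SE 0.09, adjusted p = 0.00838), the only one of the 13 member probe sets that was called between the lines. Both calls held without any single mouse. Without the mice numbered 3 the changes were -0.39 in line 20b (adjusted p = 0.00861), -0.04 in line 41 and -0.35 between the lines (adjusted p = 0.0411).

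In Mbnl1-null mice Ankrd23 was 13.41, 13.32, 13.89, 13.65 and 14.00, against 14.06, 13.82, 14.13, 14.14 and 14.25 in wild type. The change of -0.42 (SE 0.13, adjusted p = 0.0501) stood at the threshold, and the adjusted p ran from 0.0178 to 0.102 as single mice were left out. In Clcn1-null mice it was 14.27, 14.50 and 13.88, against 14.79, 14.54 and 14.54 in BALB wild type, a change of -0.40 (SE 0.20, adjusted p = 0.35).

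Flnc, the muscle filamin that cross-links actin at Z-discs and the membrane, was called higher in line 20b and in Mbnl1-null mice at both of its probe sets. At the lead the values (lowest, median, highest) were 13.04, 13.23 and 14.28 in line 20b and 12.26, 12.59 and 13.58 in line 41, against 11.64, 11.84 and 13.22 in wild type. Wild-type mouse 3 was the single wild-type mouse that reached into the range of the lines. The change was 1.35 (SE 0.28, adjusted p = 0.00221) in line 20b and 0.68 (SE 0.28, adjusted p = 0.147) in line 41. At the second probe set it was 1.29 (SE 0.28, adjusted p = 0.00302) in line 20b and 0.78 (adjusted p = 0.0954) in line 41. The lead change in line 41 was 0.51 (adjusted p = 0.295) without line 41 mouse 3 and 0.92 (adjusted p = 0.0189) without wild-type mouse 3. Without the mice numbered 3 it was 1.41 in line 20b (adjusted p = 1.13e-06) and 0.75 in line 41 (adjusted p = 0.00112), and line 20b exceeded line 41 by 0.66 (adjusted p = 0.00496).

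In Mbnl1-null mice Flnc was 11.65, 13.86, 12.81, 12.86 and 13.21, against 11.94, 11.78, 11.30, 11.81 and 11.61 in wild type. Mouse 1 lay within the wild-type range. The change was 1.19 (SE 0.32, adjusted p = 0.0271) at the lead and 1.15 (SE 0.28, adjusted p = 0.0183) at the second probe set. The lead call was lost without any 1 of 6 mice (Mbnl1-null mouse 3, 4 or 5, wild-type mouse 2, 3 or 5), with an adjusted p up to 0.0671, and was 1.50 without mouse 1. In Clcn1-null mice Flnc was 14.27, 14.63 and 13.70, against 12.63, 13.41 and 13.03 in BALB wild type, without overlap (change 1.18, SE 0.32, adjusted p = 0.12). It was 1.43 and called without Clcn1-null mouse 3 (adjusted p = 0.0433), and its adjusted p reached 0.347 without BALB mouse 1. The second probe set did not overlap either, with a change of 0.99 (adjusted p = 0.0658).

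Xirp1, a partner of filamin C that gathers at damaged fibres, was not called in any comparison at its single probe set. Its change was 0.99 (SE 0.53, adjusted p = 0.234) in line 20b, 0.55 (SE 0.53, adjusted p = 0.6) in line 41, 1.13 (SE 0.42, adjusted p = 0.0912) in Mbnl1-null and 1.54 (SE 0.35, adjusted p = 0.0701) in Clcn1-null mice. In Clcn1-null mice it was 13.06, 13.83 and 13.43, against 11.24, 12.47 and 12.01 in BALB wild type, without overlap. The Mbnl1-null change was 1.54 (adjusted p = 0.00536) without Mbnl1-null mouse 1 and 0.80 without Mbnl1-null mouse 2. In line 41 it was 0.17 without line 41 mouse 3 and 0.89 without wild-type mouse 3, and in line 20b it lay between 0.72 and 1.33 without any single mouse, none of them called. With all 3 mice numbered 3 left out it was 1.06 (adjusted p = 0.0723) in line 20b and 0.51 (adjusted p = 0.496) in line 41.

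Alpk3 was called in line 41 and not in the other 3 comparisons with wild type. It was 12.63, 12.75 and 13.14 (lowest, median, highest) in line 41 and 11.99, 12.43 and 12.84 in line 20b, against 11.97, 12.04 and 12.57 in wild type. All line 41 mice lay above all wild-type mice. The change was 0.68 (SE 0.14, adjusted p = 0.00453) in line 41 and 0.34 (SE 0.14, adjusted p = 0.103) in line 20b, and the lines themselves differed by -0.34 (95% interval -0.62 to -0.05, adjusted p = 0.179). Without the mice numbered 3 the line 20b change was 0.47 (adjusted p = 0.029) and the line 41 change 0.76 (adjusted p = 0.00384). The line 20b change was also called without wild-type mouse 3 alone or line 20b mouse 6 alone, and lay between 0.27 and 0.43 without any single mouse. The changes in Mbnl1-null (0.29, adjusted p = 0.17) and Clcn1-null mice (0.19, adjusted p = 0.379) were the smallest of the 9 positive ones.

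Mbnl1-null mouse 1 recurs in these values. It was the lowest of its 5 group mates at 9 of 10 lead probe sets, against 17.1% of all 16229 probe sets tested. Over all probe sets tested, mouse 5 was the lowest of the group most often (44.9%) and mouse 2 the highest most often (30.8%). Without mouse 5, 1461 probe sets were called higher and 1281 lower, against 1181 and 1447 with all mice. The mean of mouse 1 over the 10 members was 0.11 above the wild-type mean, while the other 4 Mbnl1-null mice were 1.19 to 1.97 above it. Mouse 1 also stood at the edge of its group in some of the 11 marker lists. Its mean was the highest over the markers of immature and regenerating fibres (9.58, others 9.19 to 9.33), macrophages and leukocytes (7.40, others 6.47 to 7.27) and cardiac muscle (4.63, others 4.11 to 4.45). It was the lowest over the endothelial markers (7.73, others 8.05 to 8.50). Over the other lists it was neither highest nor lowest, as for the slow fibre markers (8.63, others 7.71 to 10.90). The part of these markers in its low member values was not tested.

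Lists of other cell and fibre types were read in the same mice. The 8 slow fibre markers moved in the null mice: 6 were called lower in Mbnl1-null mice (median change -2.76), and 6 lower and 1 higher in Clcn1-null mice (median -2.36). The sum of their intensities was 4767 to 24884 in Mbnl1-null mice, against 34164 to 47477 in wild type. In Clcn1-null mice it was 27522 to 44732, against 79136 to 103910 in BALB wild type. None was called in either CUGexp line, where the sum was 24315 to 67255 in line 20b and 39581 to 83540 in line 41, against 4802 to 87020 in wild type. No slow fibre marker was at 0, and at most 1 of the 8 was under an intensity of 32 in any mouse. In bulk muscle, fewer fibres of a type and less RNA per fibre cannot be told apart. Ankrd2 and Csrp3 rose in Clcn1-null mice while these slow fibre markers fell, and the part of either in the other was not tested. The slow fibre mean of each mouse did not overlap between null mice and their wild type. It was 7.71 to 10.90 in Mbnl1-null mice against 11.66 to 12.12, and 10.72 to 11.94 in Clcn1-null mice against 13.00 to 13.44. A fit with it as a covariate therefore cannot separate it from genotype there, and the fitted changes reach beyond the values seen. With this covariate, 9 member probe sets were called in Mbnl1-null mice, against 745 of 16229 probe sets tested (4.59%). None was called in Clcn1-null mice, where limma called no probe set of any gene either (9 member probe sets and 2398 of all had an unadjusted p under 0.05). In Mbnl1-null mice the fitted change was 0.82 for Actn2 and 1.89 for Flnc (adjusted p = 0.0392 each), and the change of Ankrd23 was -0.31 (adjusted p = 0.454). At an unadjusted p under 0.05, 12 member probe sets were then higher and 0 lower, against 10 and 1 without the covariate. Of all probe sets tested, 3219 reached that p with the covariate and 4993 without it. In Clcn1-null mice the fitted change was 3.62 for Ankrd2, 3.13 for Csrp3 and 3.57 for Mustn1 (adjusted p of 0.249 to 0.314), but 0.10 for Fhl1 and 0.09 for Alpk3, below their values without it, and 0.29 for Ankrd23, opposite in sign. In line 41 the covariate ended the calls of Fhl1 (0.35, adjusted p = 0.0603) and Actn2 (0.31, adjusted p = 0.0523), and the change of Csrp3 was -0.02. The covariate of experiment 1 was lowest in wild-type mice 1 and 2 (10.85 and 8.63).

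Markers of immature and regenerating fibres rose in 3 of 7 genes in line 20b, in 3 of 7 in line 41 and in 4 of 7 in Mbnl1-null mice (median change 1.46), with 1 fall in each CUGexp line. In Clcn1-null mice 1 rose and 1 fell. Summed, they were 7864 to 9804 in line 20b, 6812 to 13653 in line 41 and 6772 to 18607 in wild type. Summed, they were 9032 to 21672 in Mbnl1-null and 6837 to 21880 in FVB wild type, and 14881 to 19720 in Clcn1-null and 9401 to 13871 in BALB wild type. Adipocyte markers were lower in line 20b (3 of 3) and higher in Clcn1-null mice (3 of 3). Endothelial markers were lower in line 20b (4 of 5) and line 41 (3 of 5), and smooth muscle and mural markers in line 41 (4 of 6, median change -0.45) and line 20b (2 of 6, median -0.24). Of 3 cardiac markers tested in the CUGexp lines 1 was called higher, and the medians were below 0 (-0.32 in line 20b and -0.27 in line 41). That one was Myl4, also a gene of immature muscle and on both lists, which rose by 1.26 in line 20b, 1.59 in line 41 and 3.52 in Mbnl1-null mice. The other 2, not called, were Myh6 (-0.75 in line 20b and -0.84 in line 41) and Tnnt2 (-0.32 and -0.27), and Tnnt2 rose by 0.74 in Mbnl1-null mice. The part of these in the members' changes was not tested.

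**Figure D5:**
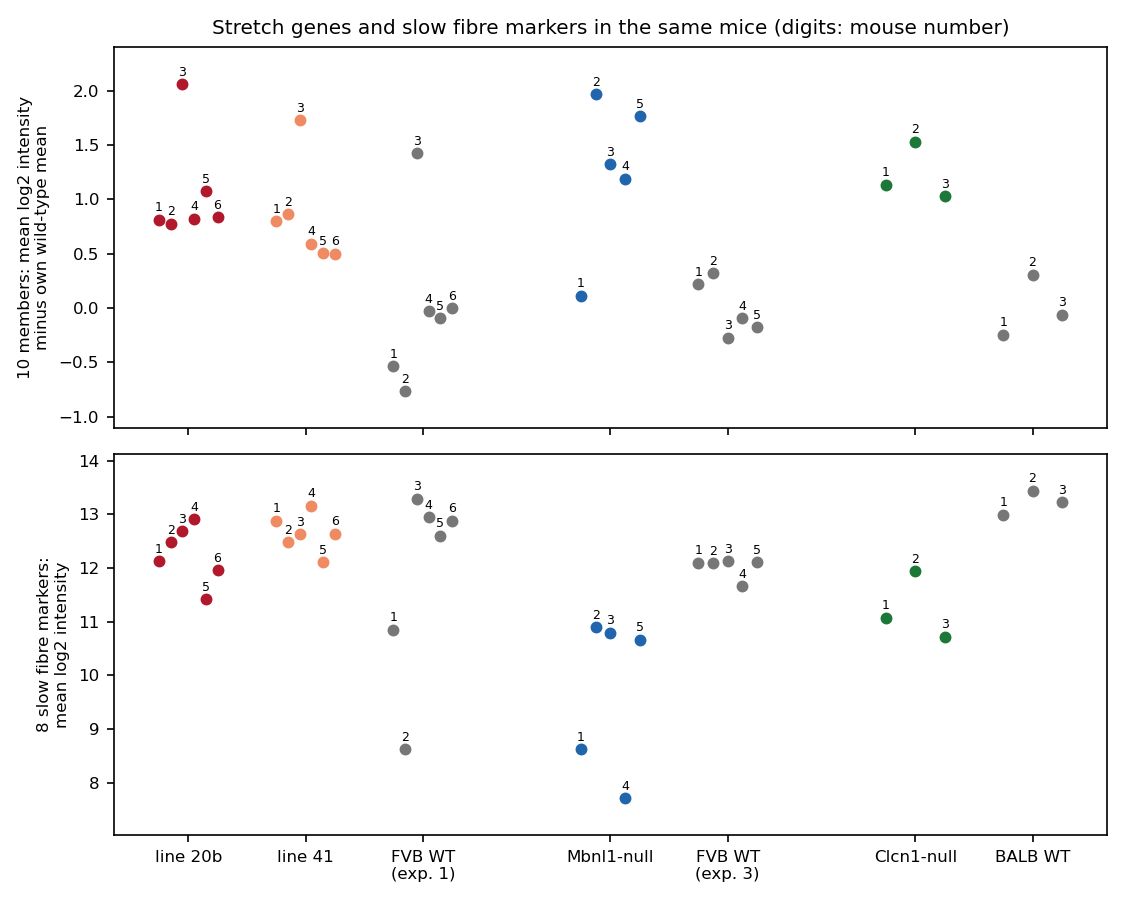
Per mouse, the mean of the 10 members minus the wild-type mean (top, log2) and the mean log2 intensity of 8 slow fibre markers (bottom), with the mouse number above each point and mutant groups left of their wild type. The 3 mice numbered 3 of experiment 1 top their groups in the upper panel, at 2.06, 1.73 and 1.42, and not in the lower panel for the CUGexp lines.

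The 3 lists of related genes, chosen with earlier results known, were read alongside. Of 40 other Z-disc and titin-linked genes tested, 11 were called higher and 9 lower in line 20b, 5 and 5 in line 41, 3 and 4 in Clcn1-null mice, and of 39 tested 4 and 5 in Mbnl1-null mice. Costamere and integrin adhesion genes rose in 7 and fell in 4 of 27 in line 20b, rose in 3 and fell in 3 in line 41, rose in 5 and fell in 1 in Mbnl1-null mice and rose in 3 and fell in 1 of 28 in Clcn1-null mice. YAP and SRF target and regulator genes rose in 5 and fell in 7 of 28 in line 20b, fell in 3 in line 41, rose in 3 and fell in 2 of 24 in Mbnl1-null mice and rose in 1 and fell in 1 of 30 in Clcn1-null mice. Of all probe sets tested, 7.35% were called higher and 9.49% lower in line 20b, and 3.88% and 4.59% in line 41. These shares were 7.28% and 8.92% in Mbnl1-null mice and 1.78% and 2.54% in Clcn1-null mice. The list genes were read at their lead probe sets. With lead probe sets alone tested, 19.8% were called in either direction in line 20b and 9.44% in line 41. That share was 16.3% in Mbnl1-null and 5.8% in Clcn1-null mice. The list medians lay between -0.18 and 0.29 in every comparison with wild type, against 0.56 to 1.57 for the 10 members.

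Named genes of these lists show opposite directions. Pdlim7, a PDZ and LIM protein of the Z-disc, was lower in every comparison with wild type, with changes of -2.01 in line 20b (SE 0.13, adjusted p = 6.57e-09), -0.86 in line 41, -2.66 in Mbnl1-null and -1.49 in Clcn1-null mice. Lmod2, a leiomodin that builds thin filaments, rose by 1.48 in line 20b, 0.66 in line 41, 1.14 in Mbnl1-null and 2.45 in Clcn1-null mice. Lims1, an integrin adaptor, rose by 1.00, 0.48, 0.91 and 0.82 in those 4 groups. In Clcn1-null mice Myoz2, a Z-disc calcineurin partner, rose by 2.34 and Sorbs2, a costamere adaptor, fell by 3.44. Ablim1, an actin-binding LIM protein, fell by 0.45 in line 41 and rose by 1.08 in Mbnl1-null mice, and Actn1, a non-muscle alpha-actinin, fell by 0.71 in line 41. Genes of the YAP and SRF list moved both ways. In line 20b Fos rose by 2.07, Ccn2 by 1.01 and Tead4 by 0.80, and Vgll3 fell by 1.40. In line 41 the 3 that fell were Myl9 (-0.57), Lats2 (-0.40) and Tagln (-0.39). In Mbnl1-null mice Ccn1 rose by 0.64 and Ccn2 by 0.59, and Amotl1 fell by 0.87 and Lats2 by 0.64. In Clcn1-null mice Acta2 rose by 0.64 and Mrtfa fell by 1.10.

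The genes with the most similar pattern of change were found for the 4 members called in at least 2 comparisons, by the smallest of the largest differences over the 4 changes against wild type, among 8829 genes. For Mustn1 these were Calml4 (0.84), Evi2a (0.84) and Ahnak2 (0.87), with no gene nearer than Calml4. The differences are absolute and were not scaled to the size of the changes. For Actn2 they were Snai3 (0.12), Slc38a3 (0.13) and St3gal5 (0.18), for Fhl1 Ppm1b (0.12), Ash2l (0.13) and Zxdc (0.14), and for Flnc Spsb1 (0.33), Uvrag (0.35) and Lims1 (0.35). The measure is over 4 comparisons, of which 2 share their wild-type mice, and says nothing of shared function.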

How the data were processed

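The authors deposited linear probe set intensities, summarised with GCRMA per the submitters' processing notes; its version and settings were not given in the sources used here. Biotin-labelled cRNA was prepared with Enzo kits from Tri-Reagent RNA, per the labels' protocols. Experiments 1 and 2 used the array pair 430A and 430B, and experiment 3 a single Mouse Genome array. The median intensity per array was 398.4 to 437.8 (430A) and 30.2 to 34.4 (430B) in experiment 1, 298.5 to 317.3 and 22.3 to 27.9 in experiment 2, and 9.56 to 11.6 in experiment 3. The number of mice limits the precision.

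The log2 of each intensity was used. A probe set was tested where it reached 32 (log2 of 5) on as many mice as the smallest group holds. The experiments were fitted separately in limma 3.58.1 (R 4.3.3; 1 mean per group, eBayes with a trend, two-sided), with 430A and 430B apart and Benjamini-Hochberg adjustment over both. Checks on simulated data preceded the fits. Probe sets were named through the platform annotation: 34945 of 45037 had 1 symbol, 932 several and 9160 none. The lead probe set of a gene had the highest mean over the 3 experiments. Named were all members, up to 4 called genes of each related list per comparison with the largest change, and the targeted genes; some were left out for length. Mouse numbers are shared between groups, but deviations of same-numbered mice correlated between -0.15 and 0.40 and not all above 0.1, so the reported tests have no block. At most member probe sets the mice numbered 3 of experiment 1 stood apart alike in all groups. That shared part stays in the spread of the tests.

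The members and all gene lists were chosen with earlier results of these data known. Alternatives were other scalings, filters, pseudocounts, eBayes settings, array weights, a replicate block, a slow fibre covariate and leaving out mice.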

Additional observations from a re-analysis of the deposited data

Results flagged for a closer look

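In groups of 5 or 6 mice, an extreme mouse was marked where its gap to the next mouse exceeded Dixon's 95% critical share of the range. Of 65 groups of member values 13 (20%) were marked, of which 12 were a mouse numbered 3 of experiment 1. Chance marks about 1 in 20; over all probe sets tested 9.21% to 14.9% of a group were marked. Ankrd1 was marked in line 20b mouse 3 (14.89 at the lead and 14.98 at the second probe set) and in wild-type mouse 3 (14.25 and 14.47). Ankrd2 was marked in line 20b mouse 3 (13.60), Xirp1 in line 20b and line 41 mouse 3 (13.08 and 13.18), and Alpk3 in wild-type mouse 3 (12.57). Flnc was marked at the lead in line 20b (14.28) and wild-type mouse 3 (13.22), and at the second probe set in line 20b and line 41 mouse 3 (14.54 and 14.28). Csrp3 in Mbnl1-null mouse 1 was marked as low, at 10.46.

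Ankrd23 differed between the effects of line 20b and line 41 by -0.43 in the direct test (adjusted p = 0.00838). At the second Fhl1 probe set the change in Clcn1-null mice was -0.41, opposite in sign to line 20b, line 41 and Mbnl1-null mice; this difference was not tested, and the probe set was near the minimum level in experiment 2.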

How the results depend on the processing

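Of 19 called member changes at lead probe sets, 12 held without any single mouse and none of the 50 changes reversed its sign past the threshold in any alternative. In line 20b, member probe sets called (7) were 11 with a replicate block and 11 without the mice numbered 3 (16.9% and 16% of all probe sets under those settings), and 7 to 12 without single mice. In line 41 (4) they were 2 at an adjusted p under 0.01, 2 without a filter, 2 with the slow fibre covariate, 2 without wild-type mice 1 and 2, 9 with the replicate block, 8 without the mice numbered 3 (of all, 3.79% without a filter, 7.22% with the covariate, 5.2% without those wild-type mice, 8.38% with the block and 6.87% without the mice numbered 3), and 2 to 8 without single mice. Between the lines (1) they were 3 with array weights, 3 with the slow fibre covariate, 3 without the mice numbered 3 and 4 with the replicate block (of all 8.74%, 6.23%, 4.37% and 5.9% in that order), and 1 without any single mouse. In Mbnl1-null mice (8) they were 5 at an adjusted p under 0.01 and 6 to 11 without single mice. With lead probe sets alone 5 of 10 were called (16.3% of all lead probe sets), the same number of lead probe sets as in the reported fit. In Clcn1-null mice (4) they were 2 at an adjusted p under 0.01 and 9 with array weights (28.2% of all). They were 0 with the slow fibre covariate, where 0 of all were called, and 1 to 5 without single mice. Without single mice, 14.5% to 17.4% of all probe sets were called in line 20b and 6.1% to 8.54% in line 41. These shares were 4% to 7.26% between the lines, 11.2% to 16.8% in Mbnl1-null and 0.179% to 8.98% in Clcn1-null mice. Genes called on the related lists were 43 in line 20b (28 at 0.01; 39 to 43 without single mice), 19 in line 41 (7 at 0.01, 12 without wild-type mice 1 and 2; 15 to 22) and 13 between the lines (6 at 0.01, 22 with array weights; 10 to 18). They were 20 in Mbnl1-null mice (8 at 0.01, 12 without a filter, 9 with the covariate; 12 to 20) and 13 in Clcn1-null mice (1 at 0.01, 8 without a filter, 45 with array weights, 2 with the block, 0 with the covariate; 1 to 26). All probe sets called in Clcn1-null mice (1120) were 47 to 2340 without single mice, 7329 with array weights, 650 without a filter and 243 with the block. Those in Mbnl1-null mice (2628) were 1727 without a filter and 745 with the covariate, and in line 41 (2315) 1433 without wild-type mice 1 and 2. Scaling turned the majority over all probe sets in every comparison but Clcn1-null: line 20b (2009 higher and 2594 lower; 2701 and 2162 with a median shift, 2448 and 2208 with quantile scaling), line 41 (1061 and 1254; 1316 and 1197, 1310 and 1138), between the lines (705 and 891; 1050 and 778 after the shift alone) and Mbnl1-null (1181 and 1447; 1531 and 1433 after the shift alone). The cause of these shifts was not tested. In the null groups the slow fibre covariate did not overlap with wild type, so it cannot be told apart from genotype. Mouse numbers did not pair the mice over all probe sets, where most mice did not correlate best with their own number (2, 1, 1, 1 and 0 pairs did). The mice numbered 3 of experiment 1 were among those that did between each CUGexp line and wild type, but not between the lines. Their correlation was 0.18 between line 20b and wild type, 0.31 between line 41 and wild type and 0.11 between the lines. At 10 of 13 member probe sets they were the highest of their group in all 3 groups.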
